A study of Mus musculus with 13 samples.

Results

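Between 24 and 48 h of A-485, cultured mouse leukemia cells showed a deep fall of transcripts for mitosis. Most genes that had changed in the first 8 h were not called in either direction, as held for most genes tested. The comparison rests on 4 of the 13 mRNA sequencing libraries of the series, 2 at 24 h and 2 at 48 h, chosen by their labelled time. The cells were murine MLL-AF10 leukemia cells, labelled as leukemia stem cells with bone marrow as source, and were grown in RPMI medium with serum and WEHI-conditioned medium. MLL-AF10 is a fusion oncogene. All groups used here carry it: untreated cells (0 h) and cells kept in A-485 for 8, 24, 48 or 72 h, with 2 libraries each. None of the 13 libraries is labelled as a vehicle control at matched times. Time in culture and time in A-485 thus cannot be told apart in the step. Neither the dose of A-485 nor the strain or age of the animals is stated in the labels. The labels do not say that the 2 libraries of a time came from separate cultures, so the p-values measure only the spread between these libraries, which may be technical.

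A-485 blocks the catalytic activity of p300 (Ep300) and CBP (Crebbp), a pair of acetyltransferases that mark active enhancers and promoters by acetylating histones. In dividing cells, genes for DNA replication are transcribed mainly through E2F factors around the start of S phase. Genes for mitosis are transcribed later, through the MuvB complex together with B-Myb and FoxM1. Promoters of the second kind often hold CCAAT boxes, bound by NF-Y, and a CHR element. Ribosomal protein genes form a separate, highly transcribed group whose messages tie up much of a growing cell's ribosomes.

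As examples of promoters, the 250 bases upstream of the annotated start are given for 4 genes that fell. They are cyclin B2 (Ccnb2), which with its kinase drives entry into mitosis, and Ube2c, a ubiquitin-conjugating enzyme that helps remove cyclins. Top2a, which untangles chromosomes, and the proliferation antigen Mki67 are the others. The 4 were picked by name, and all hold both motifs marked below. Not every promoter of the G2 and mitosis list does, so the 4 do not stand for the list. Sequences and positions are from RefSeq on GRCm38.p6, a later build than that of the deposited files. Capitals mark CCAAT or its reverse complement ATTGG, and TTTGAA (the letters of a CHR) or TTCAAA. A match of the letters need not be a working element. The 4 windows lie at chr9:70421555-70421804 (minus strand), chr2:164769679-164769928 (plus strand), chr11:99024190-99024439 (minus strand) and chr7:135716380-135716629 (minus strand), each read 5′ to 3′ along the gene.
Ccnb2: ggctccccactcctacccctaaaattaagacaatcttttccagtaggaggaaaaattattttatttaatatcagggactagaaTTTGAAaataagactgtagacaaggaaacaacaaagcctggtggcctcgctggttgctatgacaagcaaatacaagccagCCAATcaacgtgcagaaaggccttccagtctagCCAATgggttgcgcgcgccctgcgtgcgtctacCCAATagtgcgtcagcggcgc
Ube2c: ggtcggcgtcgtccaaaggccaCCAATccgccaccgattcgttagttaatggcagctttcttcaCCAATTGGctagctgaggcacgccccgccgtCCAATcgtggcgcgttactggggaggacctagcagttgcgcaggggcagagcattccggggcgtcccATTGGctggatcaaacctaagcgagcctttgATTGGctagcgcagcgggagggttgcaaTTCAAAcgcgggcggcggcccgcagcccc
Top2a: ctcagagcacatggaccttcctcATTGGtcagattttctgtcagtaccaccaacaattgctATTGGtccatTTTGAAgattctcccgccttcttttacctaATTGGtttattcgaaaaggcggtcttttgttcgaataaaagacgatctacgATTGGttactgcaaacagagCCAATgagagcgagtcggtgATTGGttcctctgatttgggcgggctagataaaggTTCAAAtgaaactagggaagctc
Mki67: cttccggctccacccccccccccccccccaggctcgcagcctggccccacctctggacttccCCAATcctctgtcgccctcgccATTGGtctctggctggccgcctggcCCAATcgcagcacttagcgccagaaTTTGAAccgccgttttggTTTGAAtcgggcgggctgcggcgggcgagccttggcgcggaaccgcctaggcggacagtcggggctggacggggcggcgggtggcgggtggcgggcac

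CCAAT, searched on both strands, was present in 77.8% of the promoter windows (250 bases before to 50 after each start) of the G2 and mitosis list (35 of 45 windows, for 42 of its 50 genes), against 37.4% of all 32851 windows. TTTGAA was present in 75.6% of the windows of that list against 17.9% of all windows. In the S-phase list, with 46 windows for 39 of 50 genes, the shares were 52.2% for CCAAT and 10.9% for TTTGAA. The E2F forms TTTGGCGC and TTTCCCGC were present in 15.2% and 17.4% of the S-phase windows, against 0.514% and 1.07% of all windows. Ribosomal protein genes, with 55 windows for 47 of 64 genes, held CCAAT in 34.5% and TTTGAA in 7.27%. Shares for the E-box CACGTG were 4.44%, 10.9% and 14.5% in the mitotic, S-phase and ribosomal windows, and 7.15% in all. The AP-1 form TGANTCA was in 0%, 2.17% and 1.82%, and in 7.81% of all windows. The interferon-stimulated response element was in 8.89%, 2.17% and 10.9%, and in 3.44% of all. These matches describe the letters in the windows and are not evidence of binding.

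The 4 libraries held between 6467762 and 9025283 estimated reads on genes, with the 24 h libraries the deeper ones. Levels are counts relative to library size, scaled by TMM (CPM), which can be compared between libraries but not between genes, since they are not divided by gene length. The mean effective length of the gene a read fell on was 3304 and 3273 nucleotides at 24 h and 3527 and 3422 at 48 h, so 48 h libraries drew more of their reads from long genes. Fewer cells of one kind and less RNA per cell cannot be told apart in such bulk samples. No B-cell marker of 14 passed the filter on low counts, 3 of 23 T- and NK-cell markers did, with summed levels of 5.73 and 5.34 CPM at 24 h and 4.06 and 2.18 CPM at 48 h, and 1 of 18 stromal and endothelial markers did. Of 18 erythroid markers 5 were tested, with sums of 58.0 and 86.2 CPM at 24 h and 37.3 and 47.9 CPM at 48 h. Of 15 megakaryocyte markers 7 were tested, with sums of 318 and 587 CPM at 24 h and 224 and 204 CPM at 48 h. Itga2b, an integrin of platelets, had 89.7 and 339 CPM at 24 h and 31.0 and 34.1 CPM at 48 h, the second 24 h library being the highest. EdgeR called 0 of the 7, with 2 lower at an unadjusted p under 0.05, and DESeq2 called 1 lower. The part of these cell types in the step was not tested. The 13 markers of myeloid leukemia identity were all tested, and none was called changed in the step, with a median log2 change of -0.16. Hoxa9, a HOX gene that MLL fusions activate, had 128 and 203 CPM at 24 h and 162 and 179 CPM at 48 h.

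Of 11119 genes tested with edgeR's quasi-likelihood test, 3 were called higher at 48 h than at 24 h (0.0270%) and 233 were called lower (2.10%), at a Benjamini-Hochberg adjusted p under 0.05. At an unadjusted p under 0.05 there were 404 higher and 1044 lower. The median log2 change over all genes tested was -0.03. Without regard to any test, both 48 h libraries lay above both 24 h libraries for 2308 genes (20.8%) and below for 2705 genes (24.3%), shares against which the counts of non-overlapping genes further on should be read. The same fit called 1082 genes higher (9.73%) and 1332 lower (12%) from 8 to 24 h. From 48 to 72 h it called 0 genes higher (0%) and 0 lower (0%), with 498 genes at an unadjusted p under 0.05. DESeq2 called 32 genes higher and 347 lower in the step from 24 to 48 h, and 232 of the 233 genes called lower by edgeR were among the latter. With only the 4 libraries of the step in the fit, edgeR called 1 gene higher and 2 lower, with 1199 genes at an unadjusted p under 0.05. CPM are shares of a library, so a change of the total RNA per cell is not seen in them.

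**Figure D1:**
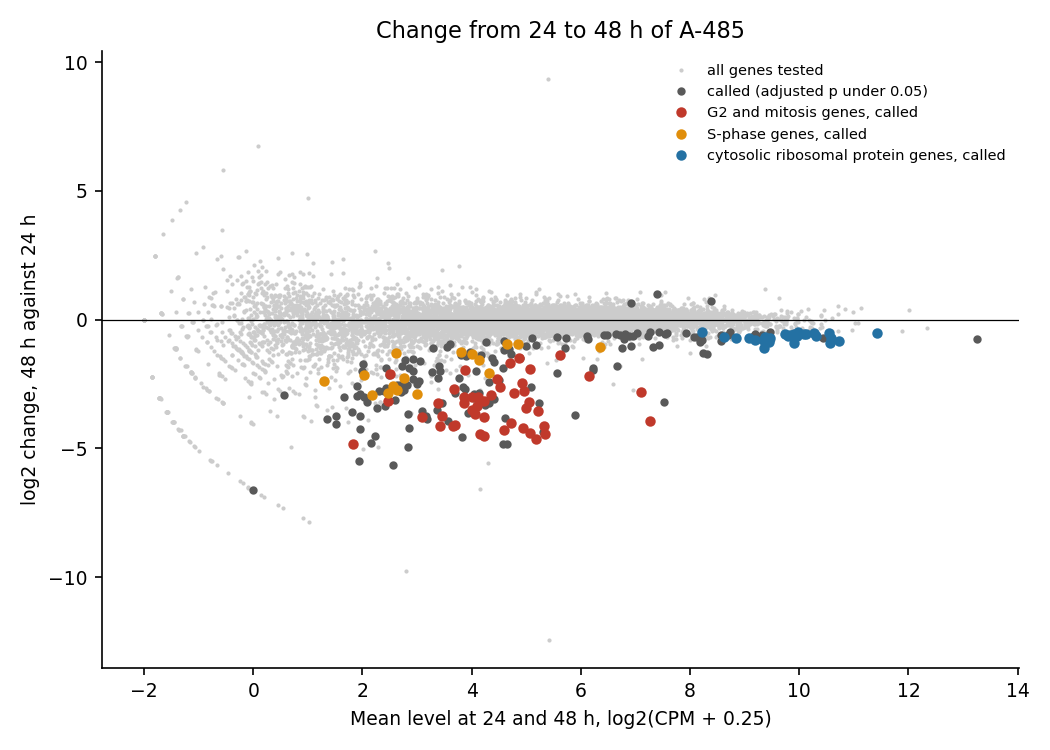
Change of each of 11119 genes from 24 to 48 h (vertical axis, log2) against its mean level (horizontal axis, log2 of CPM + 0.25). Dark and coloured points passed an adjusted p of 0.05: 45 mitotic, 16 S-phase and 28 ribosomal protein genes were called lower, and 3 genes were called higher. Points in curved lines at the left are genes with few counts.

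Mitotic genes made the deepest part of the step. All 50 genes of the G2 and mitosis list were tested, 45 were called lower and 0 higher, and the median log2 change was -3.18 against -0.03 over all genes. Every one of the 50 was lower in both 48 h libraries than in either 24 h library. Summed over the list, the level was 52.6% and 26.9% of the 0 h mean in the 24 h libraries, 7.82% and 10.3% in the 48 h libraries and 8.98% and 8.65% in the 72 h libraries. At 8 h the sum had stood at 127% and 151%, above the untreated level, and from 8 to 24 h 49 of the 50 genes were called lower.

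Mki67, the antigen used to count dividing cells, had 404 and 171 CPM at 24 h and 8.53 and 29.5 CPM at 48 h (log2 change -3.93 ± 0.57 (SE), adjusted p = 0.013). Ccnb1, cyclin B1, had 81.6 and 33.9 CPM at 24 h and 1.90 and 4.35 CPM at 48 h (log2 change -4.22 ± 0.49 (SE), adjusted p = 0.0089). In both genes the first 24 h library stood well above the second, the second 48 h library stood above the first, and no 48 h library reached a 24 h one. Ccnb2, whose promoter is printed above, had 99.1 and 39.0 CPM at 24 h and 0.542 and 5.08 CPM at 48 h (log2 change -4.64 ± 0.70 (SE), adjusted p = 0.018), and both 72 h libraries were at 0. Ccna2, cyclin A2, which acts in both S phase and G2, had 108 and 45.3 CPM at 24 h and 1.22 and 5.95 CPM at 48 h (log2 change -4.44 ± 0.57 (SE), adjusted p = 0.0097). Ube2c had 89.2 and 38.2 CPM at 24 h and 0.948 and 5.22 CPM at 48 h (log2 change -4.39 ± 0.61 (SE), adjusted p = 0.012). These 3 genes show the same order of the 4 libraries as Ccnb1.

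Genes of the spindle and kinetochore also fell. Aspm, a spindle-pole protein, had 63.0 and 28.6 CPM at 24 h and 0.542 and 2.76 CPM at 48 h (log2 change -4.81 ± 0.63 (SE), adjusted p = 0.0097). Cenpf, a kinetochore protein of late G2, had 63.3 and 27.4 CPM at 24 h and 0.271 and 4.50 CPM at 48 h (log2 change -4.27 ± 0.74 (SE), adjusted p = 0.023). The 2 libraries of 48 h are far apart for Cenpf, and only the second still holds more than a trace. Hmmr, a microtubule-binding hyaluronan receptor, changed by -4.50 and Kif15, a mitotic kinesin, by -4.54 on the log2 scale, and both were called. Ckap2l, a spindle protein, had 44.9 and 21.8 CPM at 24 h and 1.76 and 1.31 CPM at 48 h (log2 change -4.43 ± 0.40 (SE), adjusted p = 0.0063), and here the 48 h libraries were close to each other. Top2a had 327 and 154 CPM at 24 h and 30.3 and 38.7 CPM at 48 h (log2 change -2.80 ± 0.32 (SE), adjusted p = 0.0089). The deepest falls among genes with at least 10 CPM at 24 h also included Fancd2, of the Fanconi anemia pathway of DNA crosslink repair (17.4 and 4.87 CPM, then 0 and 0.435 CPM; log2 change -5.63), and Depdc1a (-4.93). They further included 2810417H13Rik (-4.82), listed by RefSeq as Pclaf, a PCNA-associated factor, and D17H6S56E-5 (-4.35), for which no function is stated here. A fold change of genes with fewer than 1 CPM at 48 h rests on few reads and depends on the prior count of the fit.

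**Figure D2:**
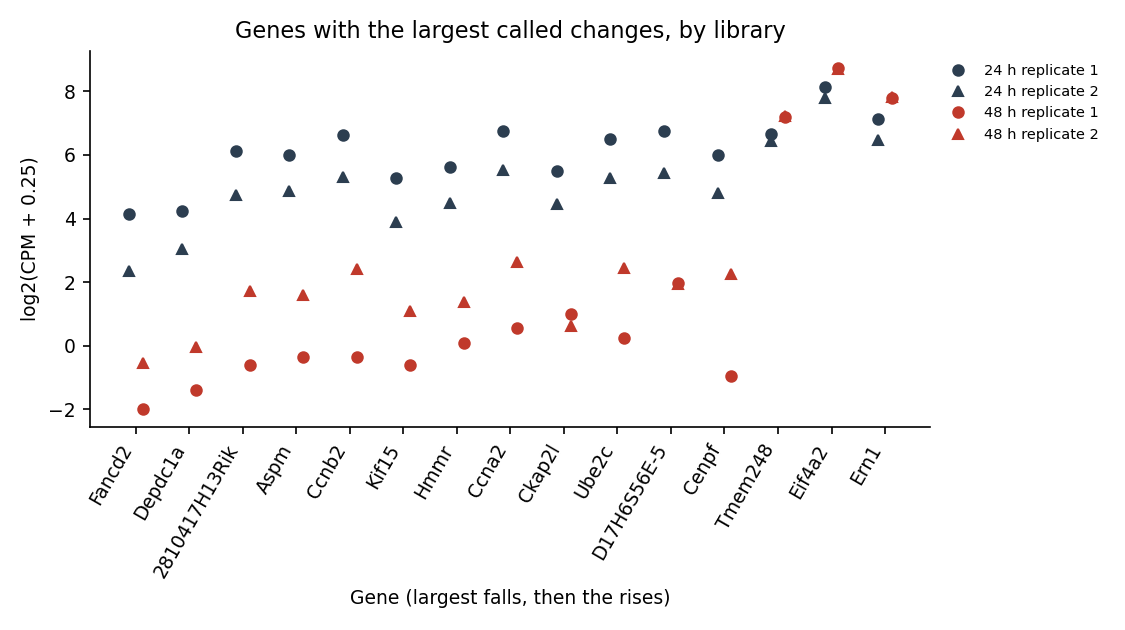
Levels (vertical axis, log2 of CPM + 0.25) of the 12 genes with the largest called falls and the 3 genes called higher, in each library. Dark symbols are 24 h and red symbols 48 h, circles are replicate 1 and triangles replicate 2. In each of the 12 falling genes replicate 1 was above replicate 2 at 24 h. No overlap between the times was a condition for choosing the genes, so every 48 h point of a falling gene lies below both 24 h points.

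Genes of DNA replication fell again, from a level that was already low. Of 50 S-phase genes, all tested, 16 were called lower and 0 higher, with a median of -0.93, and 37 were lower in both 48 h libraries than in both 24 h libraries. The summed level was 28.5% and 23.3% of the 0 h mean at 24 h and 18.6% and 18.8% at 48 h. Most of the list's fall came before the step: 48 of 50 genes were called lower from 8 to 24 h. Rrm2, a subunit of the enzyme that makes deoxynucleotides, had 11.5 and 9.26 CPM at 24 h and 2.17 and 0.871 CPM at 48 h (log2 change -2.74 ± 0.33 (SE), adjusted p = 0.0094). Cdc45, part of the replicative helicase, had 11.99 and 9.73 CPM at 24 h and 2.17 and 2.32 CPM at 48 h (log2 change -2.27 ± 0.20 (SE), adjusted p = 0.0063). For both genes the 24 h libraries differed little and neither overlapped a 48 h library. Clspn, claspin, a mediator of the replication checkpoint, had 17.6 and 9.85 CPM at 24 h and 1.63 and 2.03 CPM at 48 h (log2 change -2.91 ± 0.36 (SE), adjusted p = 0.0094). Among the 34 genes not called was Pcna, the polymerase clamp, which had 119 and 124 CPM at 24 h and 86.4 and 98.2 CPM at 48 h.

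Ezh2, the methyltransferase of histone H3 lysine 27 and an E2F target, had 45.5 and 39.9 CPM at 24 h and 22.1 and 19.9 CPM at 48 h (log2 change -1.02 ± 0.15 (SE), adjusted p = 0.013), the one gene called of 45 in the list of MLL-complex and histone methylation genes. Gtse1, a G2 and S phase protein that also binds p53, had 27.1 and 17.2 CPM at 24 h and 3.52 and 5.80 CPM at 48 h (log2 change -2.25 ± 0.31 (SE), adjusted p = 0.012). The cyclin-dependent kinase inhibitors did not pass the test: Cdkn2c (p18) had 86.9 and 136 CPM at 24 h and 41.3 and 55.4 CPM at 48 h (log2 change -1.21, 95% interval -1.81 to -0.60), Cdkn1a (p21) 491 and 387 CPM at 24 h and 518 and 422 CPM at 48 h (0.10, 95% interval -0.31 to 0.51) and Cdkn1b (p27) 173 and 128 CPM at 24 h and 187 and 209.8 CPM at 48 h (0.40, 95% interval 0.03 to 0.78). Of the 22 CDK inhibitor and quiescence genes tested, edgeR called 0 in either direction, 1 higher and 2 lower at an unadjusted p under 0.05, and DESeq2 called 1 lower.

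Ribosomal protein messages were a second, shallower block. All 64 cytosolic ribosomal protein genes were tested, 28 were called lower and 0 higher, the median log2 change was -0.52, and 54 were lower in both 48 h libraries than in both 24 h libraries. Their summed level was 61.8% and 60.8% of the 0 h mean at 24 h and 40.4% and 45.1% at 48 h. Rpl12, of the large subunit, had 881 and 912 CPM at 24 h and 409 and 429.9 CPM at 48 h (log2 change -1.10 ± 0.08 (SE), adjusted p = 0.0029). Rpsa, of the small subunit, had 2004 and 1937 CPM at 24 h and 1054 and 1055 CPM at 48 h (log2 change -0.90 ± 0.10 (SE), adjusted p = 0.0089). In both genes the libraries of a time nearly coincided and the times were well separated. Rpl15 changed by -0.92 and Rpl4 by -0.82 on the log2 scale, and both were called. From 8 to 24 h 6 of the 64 had been called lower, after 55 from 0 to 8 h. The list's median length was 455.5 nucleotides against 2501 over all genes tested, and reads moved toward long genes in the same interval. With a trend on gene length removed, 13 of the 64 genes were called lower and the median was -0.26. Ribosomal protein genes have many processed pseudogenes, so their counts can share reads with near-identical copies.

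Few other growth genes were called in this interval. Of 50 MYC targets and ribosome biogenesis genes 1 was called, Npm1 (nucleophosmin, a nucleolar chaperone), with 343 and 405 CPM at 24 h and 200.3 and 207 CPM at 48 h (log2 change -0.88 ± 0.14 (SE), adjusted p = 0.019). The list's median was -0.10, after 30 of 50 had been called lower from 8 to 24 h. Of 51 oxidative phosphorylation genes 2 were called lower, among them Atp5c1 of the ATP synthase (log2 change -0.52 ± 0.09 (SE), adjusted p = 0.020), and 34 were lower without overlap. These genes too are short (median 495 nucleotides), and reads moved toward long genes in the same interval. Their median log2 change was -0.26, and -0.06 with a trend on gene length removed. Psat1, of serine synthesis, was the one gene called of 36 amino acid and ATF4 genes, with 45.6 and 40.7 CPM at 24 h and 15.0 and 15.5 CPM at 48 h (log2 change -1.50 ± 0.30 (SE), adjusted p = 0.043). Among 52 mitochondrial ribosomal protein genes edgeR called 0, 0 higher and 10 lower at an unadjusted p under 0.05, and DESeq2 called 1 lower. Among 31 proteasome genes edgeR and DESeq2 called 0, with 11 lower at an unadjusted p under 0.05.

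**Figure D3:**
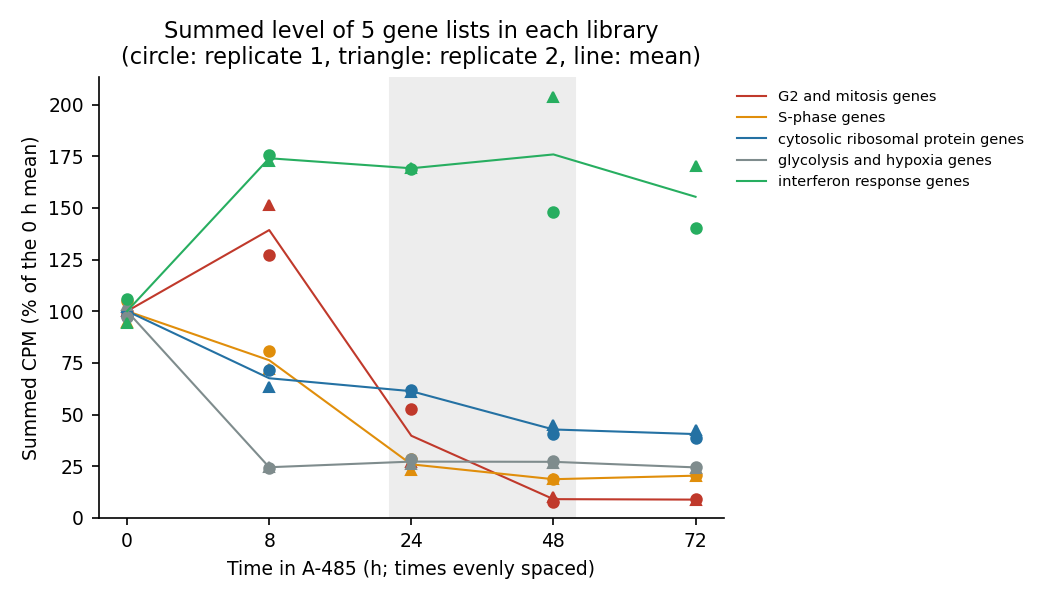
Summed level of 5 gene lists in each library as a percent of the 0 h mean (vertical axis) at each time in A-485 (horizontal axis, hours, evenly spaced and not to scale). The grey band is the step from 24 to 48 h: the mitotic sum goes from 52.6% and 26.9% to 7.82% and 10.3%, the ribosomal sum from 61.8% and 60.8% to 40.4% and 45.1%, and the glycolysis sum, between 26.1% and 28.3%, stays in that range.

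To sort the step into what continued, stopped or reversed, each gene's call from 0 to 8 h was used as its early direction, since those libraries are not part of the step. In that contrast 1987 genes were called higher (17.9%) and 2337 lower (21.0%). These words compare the step with the first 8 h only, and a turn may have come between 8 and 24 h. Of the early fallers 75 continued to fall and 3 were called higher in the step. Of the early risers 11 were called lower in the step and 0 continued to rise, with 91 higher in the step at an unadjusted p under 0.05. DESeq2 counted 6 genes that continued to rise and limma on log2(TPM + 1) counted 4. The other 147 genes called lower in the step had no call at 8 h. Of the 50 mitotic genes 5 had been called higher at 8 h and 0 lower. With 24 h against 0 h as the early direction, 2584 genes were called higher (23.2%) and 3011 lower (27.1%), and 208 continued to fall, but that contrast contains the same 24 h libraries as the step.

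Ly6c2, a surface antigen of monocytes, was lower at each later time: it had 3537 and 2499.9 CPM untreated, 1179 and 944 at 8 h, 355 and 306 CPM at 24 h and 34.5 and 37.9 CPM at 48 h (log2 change -3.19 ± 0.20 (SE), adjusted p = 0.0013), and 14.8 and 17.5 CPM at 72 h. It had the smallest adjusted p of the step. Slpi, a secreted inhibitor of neutrophil proteases, had 43.6 and 73.1 CPM at 24 h and 9.89 and 8.85 CPM at 48 h (log2 change -2.63 ± 0.26 (SE), adjusted p = 0.0067). Ablim1, an actin-binding protein, had 27.3 and 25.6 CPM at 24 h and 8.40 and 4.93 CPM at 48 h (log2 change -1.98 ± 0.29 (SE), adjusted p = 0.013) after 17.6 and 12.9 CPM at 8 h, so its 24 h level lay above the 8 h level before it fell. Ms4a3, of granulocyte-monocyte progenitors, had 7.67 and 4.39 CPM at 24 h and 0.677 and 0.290 CPM at 48 h (log2 change -3.59 ± 0.53 (SE), adjusted p = 0.013), less than 10 CPM in all 4 libraries. Perp, a p53 target of membrane junctions and cell death, had 133 and 160.3 CPM at 24 h and 69.8 and 65.6 CPM at 48 h (log2 change -1.12 ± 0.11 (SE), adjusted p = 0.0071), and Lgals1, the lectin galectin-1, had 213 and 216 CPM at 24 h and 98.6 and 108 CPM at 48 h (log2 change -1.05 ± 0.14 (SE), adjusted p = 0.010). In each of these 6 genes both 48 h libraries lay below both 24 h libraries, as in all 233 genes called lower.

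Several of the 11 early risers called lower in the step were genes of division. Spc25, a kinetochore protein, went from 39.2 and 35.1 CPM untreated to 98.4 and 98.0 CPM at 8 h, then had 20.0 and 11.0 CPM at 24 h and 1.35 and 0.871 CPM at 48 h (log2 change -3.78 ± 0.36 (SE), adjusted p = 0.0067). Kpna2, an importin of nuclear transport, went from 226 and 239 to 458 and 517 CPM at 8 h and had 151 and 83.0 CPM at 24 h and 31.0 and 32.6 CPM at 48 h (log2 change -1.88 ± 0.24 (SE), adjusted p = 0.0097). Both had already dropped below the untreated level by 24 h, so the turn itself lay between 8 and 24 h and the step continued it. Ckap2, a spindle protein, changed by -3.22, Fanca, of crosslink repair, by -2.53, and C330027C09Rik, listed by RefSeq as Cip2a, an inhibitor of the phosphatase PP2A, by -2.34 on the log2 scale. Ska2, of the spindle and kinetochore complex, had 19.4 and 22.9 CPM at 24 h and 8.67 and 7.25 CPM at 48 h (log2 change -1.41 ± 0.21 (SE), adjusted p = 0.013).

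The 3 genes called higher were all early fallers. Ern1 and Eif4a2 had already been called higher from 8 to 24 h, so their turn lay before the step and the step continued it. Ern1 encodes IRE1, the sensor kinase of unfolded protein in the endoplasmic reticulum. It had 154 and 149 CPM untreated, 62.5 and 65.5 CPM at 8 h, 138 and 87.6 CPM at 24 h and 219.7 and 226 CPM at 48 h (log2 change 0.98 ± 0.19 (SE), adjusted p = 0.040). Both 48 h libraries lay above the untreated ones, and the second 24 h library lay well below the first. With a trend on gene length removed the log2 change was 0.94 and the call was lost (adjusted p = 0.051); over all the fits run Ern1's adjusted p lay between 9.8e-05, by DESeq2, and 0.25, without the first 48 h library. Eif4a2, a helicase of translation initiation, had 283 and 219 CPM at 24 h and 426 and 415 CPM at 48 h (log2 change 0.74 ± 0.14 (SE), adjusted p = 0.035) after 183 and 152 CPM at 8 h. Tmem248, a membrane protein of little-known function, had 101 and 87.1 CPM at 24 h and 145 and 148 CPM at 48 h (log2 change 0.64 ± 0.11 (SE), adjusted p = 0.023) and stayed below its untreated 215 and 203 CPM. No gene was called higher in the fits that left out the second 24 h library, the first 48 h library or the second 48 h library. The second 24 h library is the lower one in all 3 genes, and without it the log2 changes were 0.69, 0.57 and 0.53, in the order given.

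Ern1 was the one gene called among 31 endoplasmic reticulum chaperone and unfolded protein genes, of which 17 were higher without overlap, with a list median of 0.13. Dnajb9, a chaperone of that compartment, had 58.2 and 30.7 CPM at 24 h and 72.2 and 83.3 CPM at 48 h (log2 change 0.80, 95% interval 0.14 to 1.46, adjusted p = 0.29), Edem1, of the degradation of misfolded proteins, 382 and 290.4 CPM at 24 h and 432 and 438 CPM at 48 h (0.37, 95% interval 0.07 to 0.68), and Dnajc3, a further chaperone of that compartment, 180.1 and 113 CPM at 24 h and 226 and 215 CPM at 48 h (0.59, 95% interval 0.02 to 1.15). None of these passed the adjusted threshold. Atf5, a stress-response transcription factor, had 56.2 and 76.8 CPM at 24 h and 103 and 129 CPM at 48 h (0.80, 95% interval 0.35 to 1.25) and 289 and 243 CPM at 72 h, without a call in the step.

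**Figure D4:**
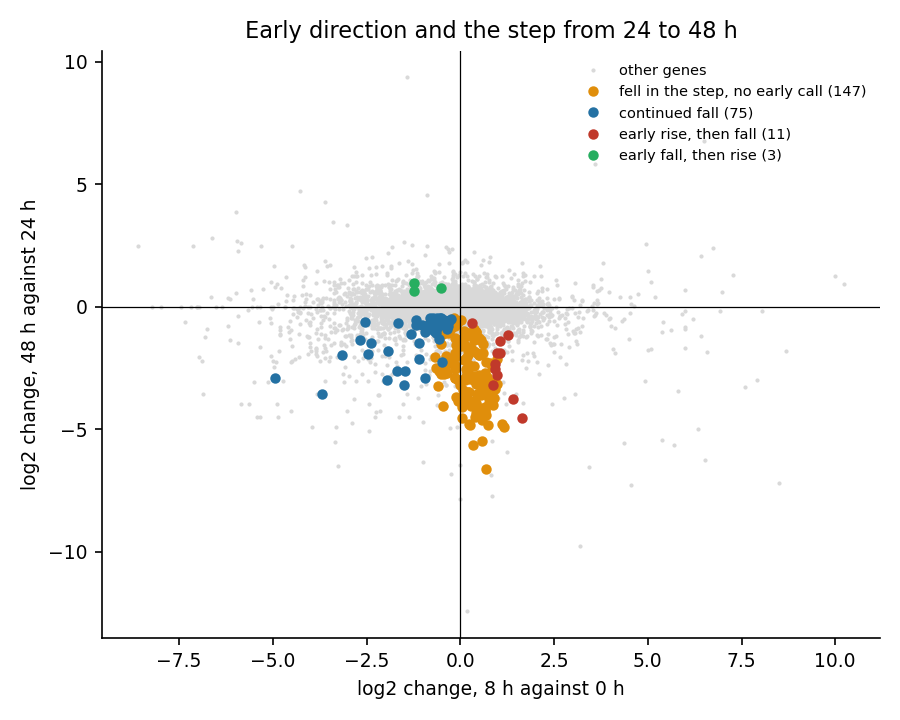
Log2 change from 24 to 48 h (vertical axis) against log2 change from 0 to 8 h (horizontal axis) for each gene tested. Blue points are 75 continued falls, and orange points 147 falls with no early call. Red points are 11 early rises with a fall in the step, and green points 3 early falls with a rise in the step. The change from 8 to 24 h is not shown. No called point lies where both changes are positive.

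For most early changes the step showed no call, as for most genes: of all 11119 tested, 0.0270% were called higher and 2.10% lower. The lack of calls is thus not particular to genes that changed early. The share of all genes with an interval within 2-fold was not counted. Of the early risers 1976 were not called, and for 1748 of them the 95% interval of the step lay within 2-fold in both directions. Of the early fallers 2259 were not called, and for 1598 the interval lay within 2-fold. Kit, the receptor of stem cell factor, had 202 and 199 CPM untreated, 8.17 and 5.93 CPM at 8 h, and 2.48 and 0.949 CPM at 24 h and 0.542 and 0.435 CPM at 48 h (log2 change -1.80, 95% interval -3.33 to -0.26), a level so low that the interval is wide. Myc had 447 and 497 CPM untreated and 15.6 and 4.98 CPM at 24 h and 9.21 and 2.18 CPM at 48 h (-0.84, 95% interval -2.59 to 0.90), with the first library the higher one at both times. Cebpa, the master regulator of granulocyte and monocyte progenitors, had 1119 and 927 CPM untreated, 179 and 179 at 8 h and 347 and 341 CPM at 24 h and 337 and 282 CPM at 48 h (-0.15, 95% interval -0.43 to 0.13), so it stood higher at 24 h than at 8 h and had no call in the step. Cd34, a progenitor surface antigen, had 193 and 161 CPM at 24 h and 152 and 144 CPM at 48 h (-0.26, 95% interval -0.52 to -0.0035). Myb, a progenitor transcription factor, had 271 and 313 CPM at 24 h and 286 and 194 CPM at 48 h (-0.28, 95% interval -0.75 to 0.19). Gfi1, a transcriptional repressor that acts in granulocyte development, had 84.9 and 110.5 CPM at 24 h and 86.8 and 76.6 CPM at 48 h (-0.26, 95% interval -0.59 to 0.07).

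Early fallers without a call in the step stood at different levels before it. Runx1, Itgam and Kdm6b were near their untreated level at 24 h, and others were not. Runx1, a regulator of blood stem cells, had 290.1 and 226 CPM untreated, 50.2 and 70.6 at 8 h and 269 and 250.2 CPM at 24 h and 416 and 278 CPM at 48 h (0.42, 95% interval -0.12 to 0.97). Itgam, the integrin CD11b, had 834 and 731 CPM untreated, 235 and 205 at 8 h and 945 and 847 CPM at 24 h and 805 and 776 CPM at 48 h (-0.18, 95% interval -0.43 to 0.07). Kdm6b, a demethylase of histone H3 lysine 27, had 39.6 and 34.7 CPM at 8 h and 94.4 and 78.6 CPM at 24 h and 139 and 128 CPM at 48 h (0.63, 95% interval 0.25 to 1.00), higher in both 48 h libraries without a call. Thbs1, thrombospondin, stayed far down: it had 5982 and 5749 CPM untreated and 102 and 19.5 CPM at 24 h and 80.3 and 78.2 CPM at 48 h (0.38, 95% interval -1.17 to 1.93). The 24 h libraries of Thbs1 lie on either side of the 48 h pair, and its direction changed sign with the 24 h library used. Cebpe, a factor of granulocyte maturation, had 212 and 176 CPM untreated, 26.4 and 10.1 CPM at 24 h and 12.5 and 8.27 CPM at 48 h (-0.82, 95% interval -2.32 to 0.69). Irf8, a factor of monocytes and dendritic cells, had 39.0 and 43.9 CPM untreated, 22.4 and 7.48 CPM at 24 h and 18.6 and 21.3 CPM at 48 h (0.41, 95% interval -0.81 to 1.64). Slc2a3, the glucose transporter GLUT3, had 4.11 and 0.356 CPM at 24 h and 1.63 and 0.725 CPM at 48 h (-0.93, 95% interval -3.29 to 1.43). In all 3 the first 24 h library was the higher one and the intervals were wide. Spi1, the factor PU.1, had 398 and 326 CPM at 24 h and 371 and 381 CPM at 48 h (0.05, 95% interval -0.37 to 0.48).

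Neither the genes of the drug's targets nor the targets of the fusion were called in the step. Ep300 had 148 and 162 CPM untreated, 344 and 379 at 8 h and 486 and 415 CPM at 24 h and 601 and 491 CPM at 48 h (0.28, 95% interval -0.03 to 0.58), and Crebbp 47.3 and 44.2 CPM untreated, 132 and 159 at 8 h and 158 and 149 CPM at 24 h and 197 and 168 CPM at 48 h (0.25, 95% interval -0.03 to 0.53). Both were called higher at 8 h and neither in the step. Of 24 MLL-fusion targets tested edgeR, DESeq2 and limma called 0, with 1 higher and 1 lower at an unadjusted p under 0.05. Meis1, a partner of HOX proteins in leukemia, had 63.8 and 115 CPM at 24 h and 77.9 and 82.7 CPM at 48 h (-0.16, 95% interval -0.90 to 0.59), and Pbx3, a second such partner, 68.8 and 85.6 CPM at 24 h and 64.6 and 66.0 CPM at 48 h (-0.24, 95% interval -0.55 to 0.07). For Hoxa9, whose levels are given above, the log2 change was 0.05, 95% interval -0.46 to 0.55. At 24 h Hoxa9 and Meis1 were higher in the second library, and the signs of their changes depended on which library was kept.

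Glycolysis and hypoxia genes had fallen in the first 8 h (33 of 35 called lower) and the step called 0 of 35, with 6 higher and 3 lower at an unadjusted p under 0.05, a median of 0.06, 2 higher and 1 lower by DESeq2, and 1 higher by limma. Vegfa, the angiogenic growth factor, had 26.9 and 19.4 CPM at 8 h and 48.7 and 29.8 CPM at 24 h and 75.7 and 82.3 CPM at 48 h (1.01, 95% interval 0.28 to 1.73), below its untreated 305 and 223 CPM. Egln1, an oxygen sensor of the hypoxia response, had 106 and 96.0 CPM at 24 h and 138 and 129 CPM at 48 h (0.40, 95% interval 0.18 to 0.63), Slc2a1, the glucose transporter GLUT1, 85.8 and 72.0 CPM at 24 h and 101 and 100.3 CPM at 48 h (0.35, 95% interval 0.09 to 0.61), and Gpi1, of glycolysis, 956 and 887 CPM at 24 h and 734 and 746 CPM at 48 h (-0.32, 95% interval -0.52 to -0.11). Each of these 4 genes has non-overlapping times, upward in the first 3 and downward in Gpi1, and none was called by edgeR.

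Interferon response genes, of which 27 of 44 tested had been called higher at 8 h, stayed up: the summed level was 169% and 169.5% of the 0 h mean at 24 h and 148% and 204% at 48 h. EdgeR, DESeq2 and limma called 0 of the 44 in the step, with 1 higher at an unadjusted p under 0.05 and a median of 0.14. The 2 libraries of 48 h differed here, the second being higher in 41 of 44 genes. Irf7, a factor of the interferon response, had 50.1 and 48.2 CPM at 24 h and 41.0 and 68.5 CPM at 48 h (0.15, 95% interval -0.64 to 0.95), and Irf1, a related factor, 98.4 and 68.0 CPM at 24 h and 113 and 113 CPM at 48 h (0.44, 95% interval 0.03 to 0.85).

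The long nuclear RNAs Malat1 and Neat1 were higher in both 48 h libraries without a call. Malat1 had 1604 and 1133 CPM at 24 h and 1757 and 2229 CPM at 48 h (0.54, 95% interval 0.09 to 0.99), and Neat1, the scaffold of paraspeckles, had 521 and 285 CPM at 24 h and 781 and 1075 CPM at 48 h (1.20, 95% interval 0.19 to 2.21). Of the 12 such RNAs tested edgeR, DESeq2 and limma called 0, with 2 higher at an unadjusted p under 0.05. Of 17 primary granule genes Ms4a3 was the one called, and the median was -0.80. Neutrophil maturation genes (21 tested) had 0 calls by edgeR, 4 lower at an unadjusted p under 0.05, and 4 lower by DESeq2. Ms4a2, a chain of the immunoglobulin E receptor, was the one called of 9 mast-cell, basophil and eosinophil markers, with 5.94 and 10.4 CPM at 24 h and 1.49 and 0.871 CPM at 48 h (log2 change -2.77 ± 0.47 (SE), adjusted p = 0.021). The summed level of those 9 markers was 149 and 198 CPM at 24 h and 94.5 and 91.1 CPM at 48 h, against 614 and 713 CPM untreated. Perp and Gtse1 were the 2 genes called of 23 p53 targets, and Ly6c2 the one called of 32 monocyte and macrophage genes.

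Lgals1 was the one gene called of 30 integrin, adhesion and matrix genes, and DESeq2 called 2 of them lower.

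The lists that follow had 0 genes called by edgeR in the step. Among 19 stem and progenitor genes 4 were lower at an unadjusted p under 0.05 and DESeq2 called 1 lower. Among 25 hematopoietic transcription factors 1 was higher and 2 were lower at that p, and among 33 cytokine receptor and JAK-STAT genes 1 and 1. Among 35 immediate-early and AP-1 genes 1 and 4 were, among 29 NF-kB and inflammatory genes 0 and 1, among 17 antigen-presentation and dendritic genes 0 and 2, and among 32 cholesterol and fatty acid synthesis genes 0 and 3, with 0 called by DESeq2 and limma in these lists. Of 17 BCL2-family genes 2 were higher and 4 lower at that p, and Bcl2, the survival factor, had 39.0 and 52.6 CPM at 24 h and 30.6 and 32.2 CPM at 48 h (-0.54, 95% interval -0.89 to -0.19). Of 33 acetyltransferases and acetyl-lysine readers 4 were higher and 0 lower at that p, and DESeq2 called 1 higher. Brd1, a subunit of acetyltransferase complexes, had 149 and 136 CPM at 24 h and 187 and 176 CPM at 48 h (0.35, 95% interval 0.14 to 0.56). Of 44 lysosome and autophagy genes 3 were higher and 3 lower at that p, and DESeq2 called 1 higher.

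The 2 libraries of 24 h differed more than those of any other time by a count of genes apart. Where the higher library reached 10 CPM or more, 515 genes (5.69% of 9047) were at least 2-fold apart, 379 higher in the first library and 136 in the second. At 48 h 55 such genes (0.63% of 8730) were 2-fold apart, at 8 h 366, at 0 h 82 and at 72 h 184. Of the 515, 63 were called lower in the step and 452 were not called, and for 362 of them the 48 h mean lay nearer the first 24 h library. The order of the 2 libraries was the same at 8 h for 445 of the 515 and the opposite at 72 h for 412. Such shares were not counted over all genes tested, so they are not particular to the 515 as far as is known. Over all genes tested, the log2 ratio of the first to the second library correlated at 0.64 between 8 and 24 h. Between 24 and 72 h it correlated at -0.41. Genes higher in the second 24 h library included Foxc1, a forkhead factor, with 22.6 and 306 CPM, Wnt2, a secreted ligand, with 0.540 and 69.2 CPM, Susd5 with 0.216 and 76.1 CPM, and Mecom, the stem cell factor EVI1, with 27.8 and 129 CPM. The same 4 genes were high in the second 8 h and the first 72 h library and lower in both 48 h libraries than in any of those 3, where Foxc1 had 22.4 and 35.7 CPM and Mecom 35.4 and 39.0 CPM. Elane, neutrophil elastase, had 24.7 and 0.356 CPM at 24 h, and Mpo, myeloperoxidase, 0.540 and 0 CPM, against 3119.6 and 2308 CPM untreated.

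Each mitotic gene was also higher in the first 24 h library than in the second, in 50 of 50, by a median of 1.11 on the log2 scale, and at 48 h the first library was lower in 45 of 50, with a median of -1.09. Of the 233 genes called lower 175 were higher in the first 24 h library, 182 were lower in the first 48 h library, and all 233 were lower in both 48 h libraries than in either 24 h library. Each library was then left out in turn. Without the first 24 h library 15 genes were called higher and 165 lower, with 35 mitotic genes among the latter, and without the second 0 and 215, with 48 mitotic genes. The log2 change of Mki67 was -3.18 without the first 24 h library and -4.42 without the second, that of Ly6c2 was -3.08 and -3.29, and that of Rpl12 was -1.12 and -1.07. Without the second 48 h library 0 genes were called higher and 82 lower, with 28 mitotic genes. Without the first 48 h library 0 were called in either direction, with 828 genes at an unadjusted p under 0.05 and a smallest adjusted p of 0.0625. The lone library of a time was then assumed to vary like the other groups. The log2 change of all 233 genes stayed negative in each of these 4 fits. Since none of the 233 overlapped between the times, leaving out a library could hardly turn a sign, so this is no check. Without one or the other 0 h library 0 genes were called higher and 119 or 118 lower. Without the 3 libraries high in Wnt2 (second 8 h, second 24 h and first 72 h) 27 genes were called higher and 374 lower, with 49 mitotic, 22 S-phase and 27 ribosomal protein genes lower; this fit was chosen after the values were seen.

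**Figure D5:**
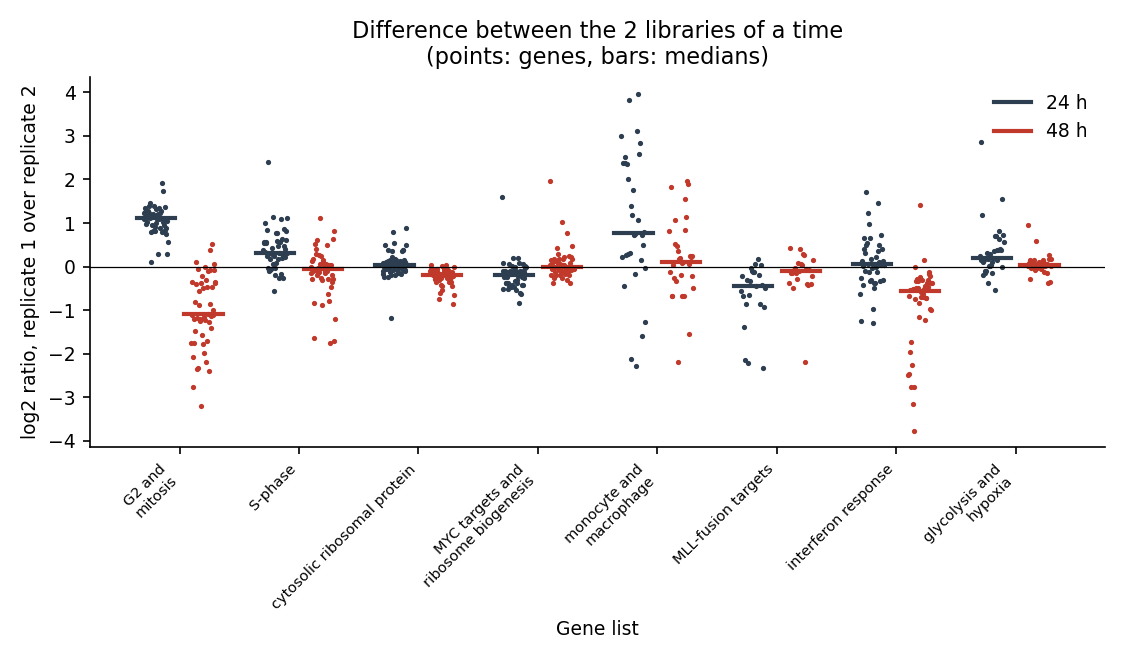
Log2 ratio of replicate 1 over replicate 2 (vertical axis) for each gene of 8 lists (horizontal axis), in dark for 24 h and red for 48 h, with bars at the medians. Mitotic genes lie above 0 at 24 h (median 1.11) and mostly below 0 at 48 h (median -1.09), and interferon response genes lie mostly below 0 at 48 h (median -0.56).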

How the data were processed

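Messenger RNA was sequenced from the cells described above. STAR, RSEM and the build mm9 are named in the submitters' processing notes, without versions. For 24328 genes the authors deposited, per the file headers, an expected count (reads estimated for a gene, not scaled to depth), a TPM (scaled for length and depth) and an effective length in nucleotides. Files of the 10 A-485 libraries were used; the GMP, LSC and mAML libraries were not used here.

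Expected counts were rounded to whole numbers. Totals ran from 6467762 to 9763278 per library. edgeR 4.0.16 in R 4.3.3 was fitted with TMM scaling, filterByExpr by time (11119 genes kept), time as a factor and all 10 libraries, which share one estimate of the spread (common biological coefficient of variation 0.186). The step is the contrast of 48 h minus 24 h. The SE is approximate (the size of the log2 change over the root of F), and 95% intervals use the test's degrees of freedom. edgeR's p-values were adjusted by Benjamini-Hochberg over all genes tested, and a gene is called at an adjusted p under 0.05. DESeq2 1.42.0, limma 3.58.1 on log2(TPM + 1), other scalings and filters, a length trend, a replicate block and fits without each library were tried as alternatives. In simulated data of the step with 11119 genes the test recovered 42% of 2-fold and 96% of 4-fold changes, with 5 false calls of 143. The simulation gave every gene the same spread at all times, and no change at times other than 48 h. The real libraries differ in both, so these shares need not hold for them.

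Named genes were a fixed set, the 12 largest called rises and falls with at least 10 CPM and no overlap, up to 4 genes of smallest adjusted p per list, and the largest continued changes and reversals. The members and lists were chosen with earlier results of these data known. The CHR and E2F motifs, and Pcna, were chosen after values were seen. Promoter windows are RefSeq's, 250 bases before to 50 after each start. Some genes that met the naming rule are not reported here.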

Additional observations from a re-analysis of the deposited data

How the results depend on the processing

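The fall of the 233 genes called lower kept its direction in all the fits run. These genes were picked for that fall in the same libraries and did not overlap between the times, so their direction is no independent check. The number of calls depended on the fit. The cause was not tested except where fewer libraries or genes enter by construction. Counts are given as higher and lower, then continued rise and fall, then reversed upward and downward. DESeq2 gave 32 higher, then 6 and 115, then 15 and 29. RLE scaling moved none of the main counts by over 1.5 times. Library size alone gave 32 continued falls, 45 reversals downward, 18 ribosomal genes, 4033 early risers and 1486 early fallers not called, 3596 and 932 of them within 2-fold. No filter gave 7 higher, then 5 and 31 reversals. Only the 4 libraries compared gave 1 and 2 calls (1199 genes at an unadjusted p under 0.05), 1 continued fall, 0 reversals either way, and 0 mitotic, S-phase and ribosomal genes.

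limma on log2(TPM + 1) gave 18 and 145, then 4 and 15, then 7 and 45, with 7 S-phase and 14 ribosomal genes, and 4795 and 1314 early changes not called, 4440 and 917 within 2-fold. With a pseudocount of 0.1 it gave 19 and 146, then 4 and 13, then 8 and 23, with 6 S-phase and 13 ribosomal genes, and 4839 and 1251 not called, 4260 and 763 within 2-fold. Without a filter it gave 0 and 1 (2355 genes at an unadjusted p under 0.05), 1 continued fall, 0 reversals, 0 genes of the 3 lists, and 4619 and 1432 not called, 4290 of the risers within 2-fold. TPM scaling moved the median of all genes from -0.03 to 0.13, so limma's directions are relative to that shift; the median of the mitotic list was then -2.47. A length trend gave 6 higher, 41 continued falls and 13 ribosomal genes. The early direction from 24 h against 0 h gave 208 continued falls and 1 reversal each way.

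The difference between replicate 1 and replicate 2 correlated across genes at 0.64 between 8 and 24 h. It correlated at -0.40 between 8 and 72 h and at -0.41 between 24 and 72 h. All other pairs of times lay between 0.02 and 0.15. Whether the replicate numbers pair the samples cannot be settled from these values. A replicate block gave 3 higher and 189 lower, with 39 mitotic and 18 ribosomal genes; of the 3 genes called higher without it, Eif4a2 and Tmem248 were among them and Ern1 was not (edgeR adjusted p = 0.068); with the length trend as well it gave 151 lower, 35 continued falls and 9 ribosomal genes. Leaving out single 24 h or 48 h libraries gave 0 to 15 higher and 0 to 215 lower. Among the latter were 0 to 48 mitotic, 0 to 19 S-phase and 0 to 14 ribosomal genes. The ribosomal count lay above this range without the first or the second 8 h library. Counts that use the early direction were taken over fits without a single 0, 8, 24 or 48 h library. They were 0 to 1 continued rises, 0 to 63 continued falls, 0 to 10 reversals upward and 0 to 38 downward. Not called were 1195 to 2094 early risers and 1480 to 2438 early fallers, with 1081 to 1795 and 1053 to 1661 within 2-fold. Without the libraries high in Wnt2 there were 27 and 374, then 5 and 140, then 13 and 38.

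Signs of uncalled log2 changes that turned were, without the libraries high in Wnt2, Cdkn1a -0.063, Spi1 -0.081, Meis1 0.33, Irf8 -0.17 and Thbs1 -0.37, and, by limma on TPM, Meis1 0.061, with and without a filter, and 0.063 with the lower pseudocount. Single genes were also followed over fits without 1 of the 24 h or 48 h libraries, but not over those without a 0 h or 8 h library. Their ranges were Cdkn1a -0.063 to 0.28, Myc -2.24 to 0.21, Spi1 -0.081 to 0.20, Hoxa9 -0.25 to 0.42 and Meis1 -0.52 to 0.33. For the others they were Irf8 -0.17 to 1.41, Cebpe -1.34 to 0.043, Thbs1 -0.37 to 2.03, Slc2a3 -1.78 to 1.70 and Irf7 -0.26 to 0.48. With 2 libraries a time and at most 9763278 reads each, a 2-fold change was often missed in the simulated data. A gene without a call may still have changed.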
